A study of Mus musculus with 12 samples.

Results

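The p53 pathway and the apoptosis machinery it feeds were followed through 39 mouse genes, taken by symbol from a given list out of the 22619 gene symbols in the files. They comprise p53 itself and its inhibitor Mdm2, 8 genes of cell cycle and growth arrest, 6 that damp growth or stress signals, 2 of DNA repair and nucleotide supply, 3 of the death receptor route, 3 further p53-linked death genes, 5 BH3-only activators, 2 pore-forming effectors, 3 BCL-2 type inhibitors, and 5 genes of the apoptosome and its regulation. The series holds 12 RNA-seq libraries made with Smart-seq2, a full-length protocol for very small amounts of RNA, and it asks what the loss of Dcaf11, a substrate receptor of a ubiquitin ligase, does in early embryos and embryonic stem cells (ESCs). The groups were KO arrest (C57BL/6 embryos, Dcaf11 knock out, n = 3, called arrested in the sample titles only), KO embryo (C57BL/6, Dcaf11 knock out, n = 3), control embryo (C57BL/6, wild type, n = 2), KD ESC (129Sv ES cells, Dcaf11 knock down, n = 2) and control ESC (129Sv ES cells, wild type, n = 2). The embryonic stage, the number of cells per library, the part of the gene removed, the number of ES cell clones and the agent of the knock down are unstated in the sources used. The labels do not say whether replicates are separate embryos or separate cultures; p-values therefore reflect only how far these libraries differ among themselves, in part perhaps for technical reasons.

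p53 is a transcription factor that is kept scarce by the ubiquitin ligase MDM2, whose own gene it activates. When DNA damage or other stress stabilises p53, it switches on genes that stop the cell cycle, of which Cdkn1a (p21) is the best known, and genes that push the cell towards death, such as Bax, Bbc3 (PUMA) and Pmaip1 (NOXA). Death by the mitochondrial route depends on the balance inside the BCL-2 family: BH3-only proteins free or activate BAX and BAK, inhibitors such as BCL-2, BCL-XL (Bcl2l1) and MCL-1 hold them, and cytochrome c released through the pores assembles the apoptosome with APAF1 and caspase-9. p53 protein activity is set largely after transcription, and none of it was measured here.

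The promoters of 4 genes that the embryo comparisons turn on are shown to let a reader see the p53 motif in place. They are RefSeq sequences on GRCm38.p6, the 250 bases before the annotated start, written 5′ to 3′ on the strand of the gene, and capitals mark matches to the 10-base unit of the p53 response element, allowing 1 mismatch where the unit sits within 13 bases of an exact match. The Cdkn1a window is chr17:29090729-29090978 (plus strand), the Ccng1 window chr11:40755287-40755536 (minus strand), the Bax window chr7:45466899-45467148 (minus strand) and the Mdm2 window chr10:117710759-117711008 (minus strand).
Cdkn1a: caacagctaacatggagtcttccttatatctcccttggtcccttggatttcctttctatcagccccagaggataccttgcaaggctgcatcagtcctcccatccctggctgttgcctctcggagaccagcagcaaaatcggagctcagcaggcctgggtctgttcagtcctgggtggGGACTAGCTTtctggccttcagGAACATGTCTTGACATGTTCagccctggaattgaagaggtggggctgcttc
Ccng1: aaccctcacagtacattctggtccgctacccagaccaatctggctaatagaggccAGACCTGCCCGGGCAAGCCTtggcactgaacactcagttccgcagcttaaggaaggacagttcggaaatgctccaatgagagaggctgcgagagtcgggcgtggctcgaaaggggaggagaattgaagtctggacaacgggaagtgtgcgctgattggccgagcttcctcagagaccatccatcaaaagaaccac
Bax: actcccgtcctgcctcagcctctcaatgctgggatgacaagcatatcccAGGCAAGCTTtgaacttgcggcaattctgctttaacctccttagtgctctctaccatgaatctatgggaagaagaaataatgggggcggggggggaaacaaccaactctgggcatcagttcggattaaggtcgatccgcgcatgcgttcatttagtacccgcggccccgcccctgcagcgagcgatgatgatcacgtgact
Mdm2: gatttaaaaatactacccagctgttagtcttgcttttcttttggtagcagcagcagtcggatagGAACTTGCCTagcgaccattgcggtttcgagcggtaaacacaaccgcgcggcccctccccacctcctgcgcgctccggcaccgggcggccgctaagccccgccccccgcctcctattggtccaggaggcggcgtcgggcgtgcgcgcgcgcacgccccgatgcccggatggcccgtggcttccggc

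In Cdkn1a, the units began 73, 51 and 41 bases before the start, the last with 1 mismatch, and the second and the third touched with no spacer; another Cdkn1a window, for a start further downstream, held none. In Ccng1 a unit with 1 mismatch, 195 bases before the start, adjoined an exact unit at 185. Bax had a single exact unit at 201 and Mdm2 a single one at 186. Both strands were searched with the p53 consensus, which reads alike on either strand, over windows of 300 bases (250 before and 50 after the start). An exact unit lay in 11 of 43 windows of the 32 genes with an entry (25.6%), against 8.36% of all 32851 windows. The 10 genes with a unit were Aen, Bax, Ccng1, Cdkn1a, Ei24, Gadd45a, Mdm2, Polk, Sesn1 and Trp53. A full site of paired units with at most 1 mismatch was present in 2 of the windows (4.65%), those of Cdkn1a and Ccng1, against 0.627% of all windows. The Aen windows overlap and hold the same unit. The genes were listed as p53 targets and apoptosis genes, so a higher share of p53 units among them is not an independent result. A match describes letters and is not a bound site. Pmaip1, Tnfrsf10b, Trp53inp1, Bik, Perp, Zmat3 and Rrm2b had no entry.

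All levels below are FPKM as the authors deposited them, a read number scaled to gene length and library, and all fold changes are log2 differences of FPKM + 1 from limma, which understates changes of low genes. Calls were made where the p-value, adjusted by Benjamini-Hochberg across all genes tested, was under 0.05. Dcaf11 stood at 4.43, 0.422 and 6.02 FPKM in KO arrest, 3.99, 2.84 and 0.184 in KO embryo, and 2.82 and 14.3 in control embryo, ranges that overlapped; with the deleted part unknown, these values do not check the embryo labels. In ESCs Dcaf11 was 1.69 and 1.83 in KD ESC against 6.48 and 4.52 in control ESC, a log2 change of -1.22 ± 0.21 (limma adjusted p = 0.0521). Relative depth, as coverage per FPKM, ranged from 0.373 to 2.01, and read numbers are unknown. This depth was 0.373 to 0.659 in KO arrest, 0.585 to 1.32 in KO embryo and 1.22 to 2.01 in control embryo. KO arrest and control embryo thus did not overlap in depth, while KO embryo overlapped both, and KD ESC overlapped control ESC. The part of depth in the results below was not tested. The highest relative depth, 2.01, was that of control embryo 1. Control embryo 1 stood apart, with 6573 genes at 1 FPKM or more (up to 12061 in other libraries) and 18 of the 39 genes at that level, against 31 in control embryo 2. Fibroblast marker genes (5 listed) summed to 0.0513 to 1.09 FPKM in KO arrest, 54.3 to 88.1 in KO embryo and 16.7 to 55.1 in control embryo, with 4 of 5 at 0 in every KO arrest library. The 5 blood markers summed to 0 to 0.743, 199 to 299 and 57.1 to 108 in the same order, 4 of them at 0 in every KO arrest library. Of these, Hba-a1 was at 0 in all 12 libraries. Nearly all of each KO embryo and control embryo sum was S100a8 and S100a9, with S100a8 at 0 in control embryo 2. Ptprc did not exceed 0.486 in any library. Alas2 ran the other way, at 0.743, 0.116 and 0 in KO arrest and at 0 in both control embryos. The 7 oocyte and cleavage markers summed to 498 to 748 in KO arrest, 7241 to 10468 in KO embryo and 21132 to 27853 in control embryo. Most of each sum was Omt2b, at 648, 429 and 514 in KO arrest, 10152, 7079 and 10260 in KO embryo, and 20739 and 27071 in control embryo. Zp3, Gdf9, Bmp15 and Zar1 were also lower in every KO arrest library than in both control embryos. Ooep and Nlrp5 overlapped between KO arrest and control embryo. The 3 primitive endoderm markers summed to 24.4 to 44.1 in KO arrest, 22.3 to 39 in KO embryo and 6.60 to 15.5 in control embryo. These similar sums of the knock out groups hide different markers. Gata6 was at 32.9, 12.02 and 22.1 in KO arrest, 0.391, 0.0951 and 0.347 in KO embryo, and 0.181 and 2.74 in control embryo. Gata4 was at 10.8, 12.4 and 22 in KO arrest and 38.6, 23.9 and 21.1 in KO embryo, which overlapped, and at 6.42 and 10.6 in control embryo. The 6 ES cell markers summed to 58.0 to 144 in KO arrest, 4.57 to 18.2 in KO embryo and 29.5 to 32.6 in control embryo. Tdgf1 was the highest of them in each KO arrest library, at 23.4, 97.04 and 96.7, and was at 0 in both control embryos. Nanog was also higher in every KO arrest library than in both control embryos. Sox2 was lower, at 1.02, 0.772 and 0.283 in KO arrest against 14.1 and 5.19 in control embryo. Pou5f1, Esrrb and Zfp42 overlapped between KO arrest and control embryo. The part of these differences in the results below was not tested, and in such bulk libraries fewer cells of a type and less RNA per cell cannot be told apart.

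Of the 39 genes, 37 were tested and 25 were called in at least 1 of the comparisons, where 62.6% of all genes tested were. Fas, Casp8, Bak1 and Bcl2 were too low to be tested among the embryos, which left 35, and Fas and Bcl2 among the ESCs, which left 37. Among embryos 11 genes were listed at 0 in at least 1 library, 6 of them in control embryo 1; a 0 in these files can be a failed estimate. In embryo libraries 16 of the 39 were above 1 FPKM throughout, and in ESC libraries 34. Summed over the 39, the level was 1480, 1144 and 1349 FPKM in KO arrest, 927, 765 and 785 in KO embryo, 358 and 681 in control embryo, 1295 and 1354 in KD ESC, and 1379 and 1490 in control ESC. The KO arrest libraries lay above every other embryo library in this sum.

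**Figure D1:**
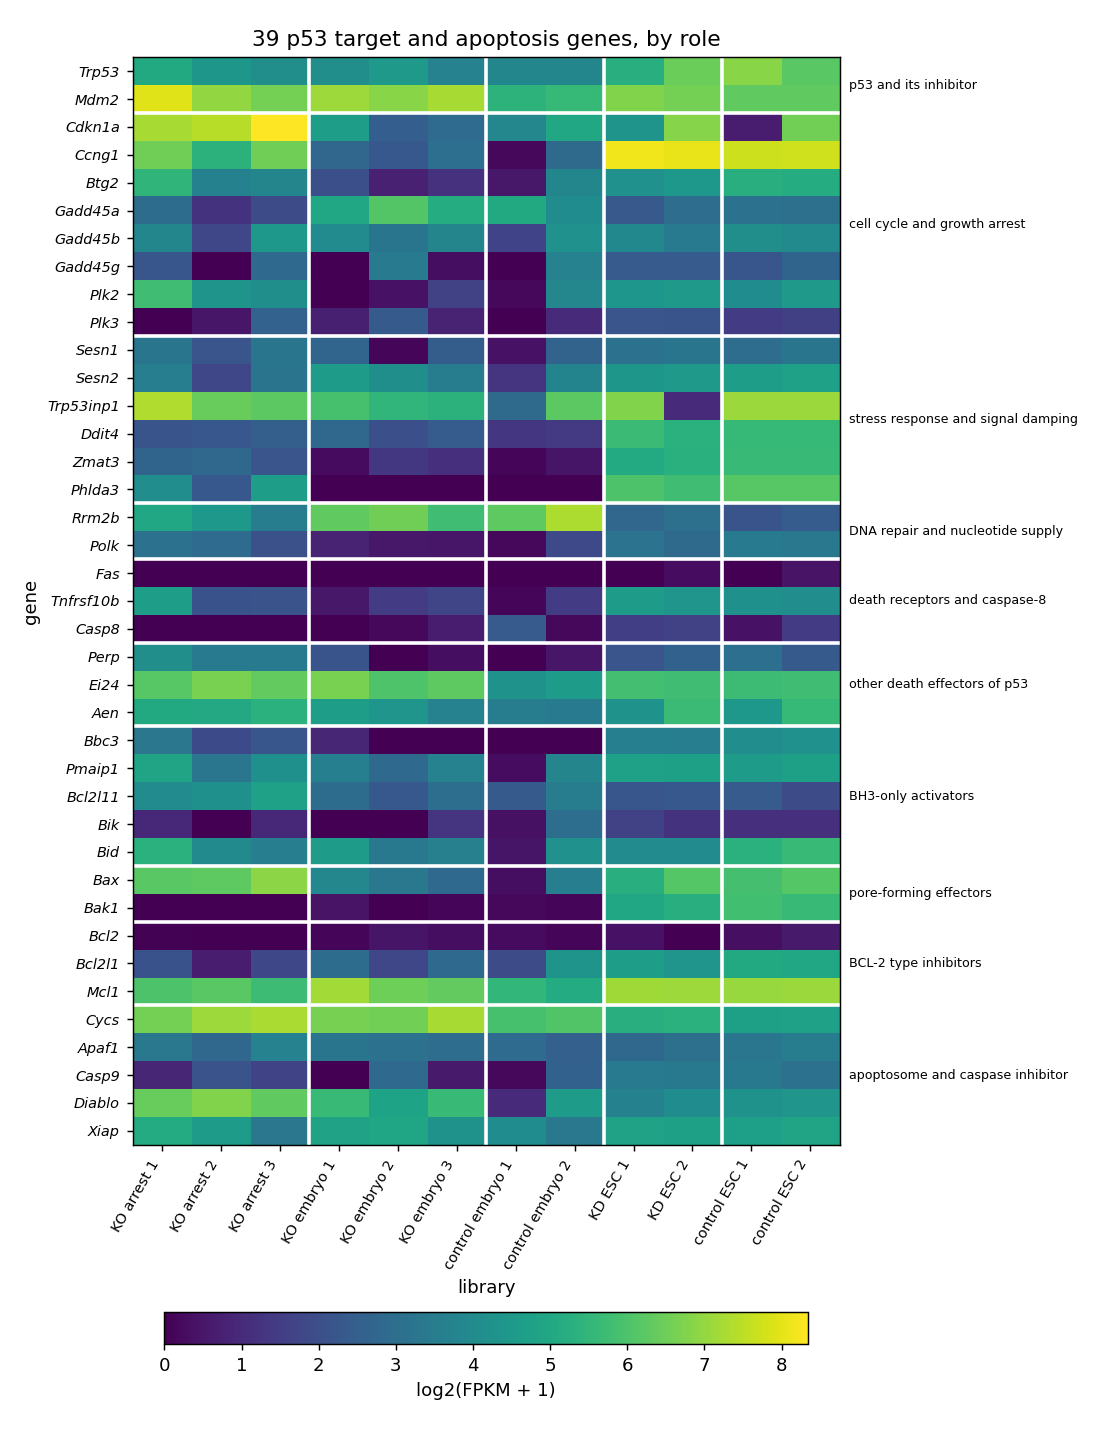
Level of each of the 39 genes (rows, by role) in each of the 12 libraries (columns), as log2(FPKM + 1). Cdkn1a, Ccng1, Bax, Perp and Phlda3 are higher in the 3 KO arrest libraries than in the other 5 embryo libraries. Gadd45a and Rrm2b are lower there. Low levels are dark, and control embryo 1 is the darkest column.

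In KO arrest embryos, 13 of the 35 tested genes differed from control embryos, 11 higher (Ccng1, Bax, Diablo, Phlda3, Perp, Cdkn1a, Bbc3, Zmat3, Ei24, Mdm2 and Aen) and 2 lower (Rrm2b and Gadd45a). Over all 11795 genes tested, 25.2% were called, 16.4% higher and 8.87% lower, and the median log2 change was 1.65 for the 35 and 0.45 for all. Against KO embryos, which carry the same knock out, 9 of 35 differed, where 8.58% of all genes did (4.93% higher, 3.65% lower): Cdkn1a, Plk2, Phlda3, Ccng1, Bax, Perp and Bbc3 were higher and Rrm2b and Gadd45a lower, with a median of 0.44 against 0.07 for all genes. Phlda3, Perp and Bbc3, and Polk, which was not called, passed the filter on low values only through the KO arrest libraries, as 12.7% of all genes tested did, so that a higher value there was a condition of their entry. Without such genes 10 were called against control embryo (27.2% of all genes that passed otherwise) and 6 against KO embryo (8.68%). Of the genes called, 6 rose and 2 fell in both comparisons, which share the KO arrest libraries. The groups did not overlap for 21 of 35 genes against control embryo (48.8% of all genes) and for 18 of 35 against KO embryo (37.1% of all genes). Both counts, and the medians above, include Phlda3, Perp, Bbc3 and Polk, for which a higher value was a condition of entry. The values for all genes include such genes too, and none are given without them. With the libraries scaled by median of ratios, the median of all genes moved by -0.41 against control embryo, and 10 of the 13 calls against control embryo remained; against KO embryo it moved by -0.03 and 9 genes were called. The count against KO embryo was the less stable: it was 4 with pseudocount 0.1 and 3 with no filter on low values, and Cdkn1a and Gadd45a, beside Phlda3, were called under every alternative run. With no filter the calls of Plk2, Ccng1, Bax, Perp, Bbc3 and Rrm2b were lost, and with pseudocount 0.1 the same calls except that of Rrm2b.

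**Figure D2:**
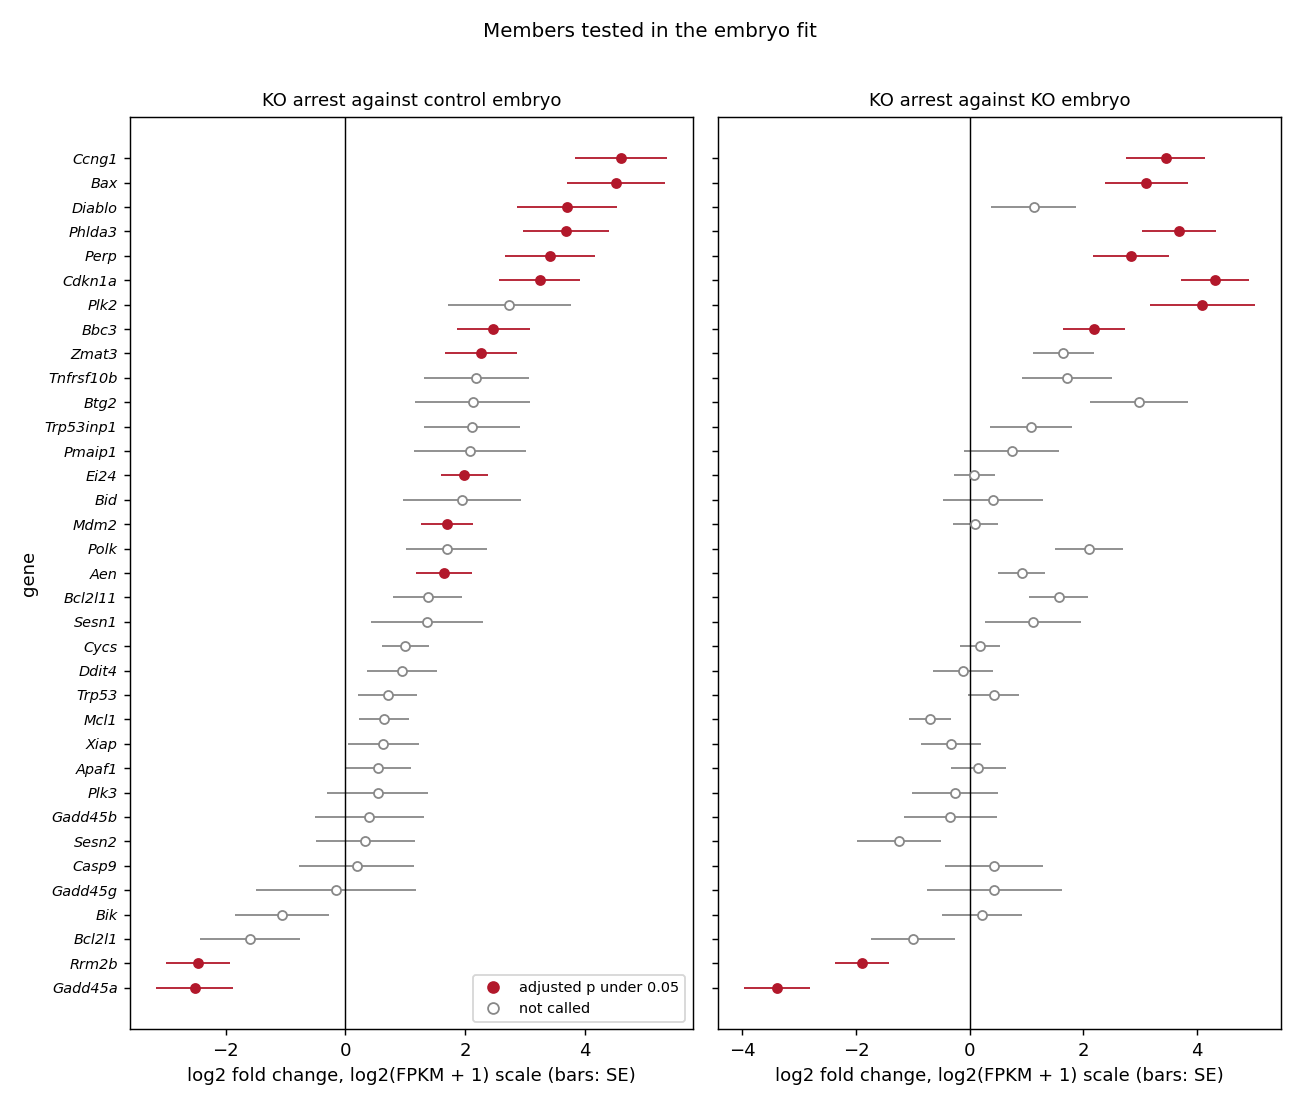
Difference in log2(FPKM + 1) (x axis, bars show the SE) of the 35 tested genes in KO arrest against control embryo and against KO embryo. Cdkn1a, Ccng1, Bax, Perp, Phlda3 and Bbc3 are called higher and Gadd45a and Rrm2b lower in both comparisons. Points of Phlda3 and Bbc3 against groups listed at 0 depend on the pseudocount.

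Transcripts of p53 itself were not called in any comparison among embryos, whereas Mdm2 was called in KO arrest against control embryo. Trp53 was at 32.2, 20.4 and 16.5 FPKM in KO arrest, 16.5, 21.8 and 12 in KO embryo, and 13.3 and 13.1 in control embryo. All KO arrest values lay above both controls but overlapped the KO embryo values, and neither comparison of KO arrest was called (log2 change 0.71 ± 0.50, limma adjusted p = 0.324, against control embryo; 0.42 ± 0.45, adjusted p = 0.604, against KO embryo). Mdm2, the ligase that degrades p53, was at 243, 126 and 96.1 FPKM in KO arrest and 140, 115 and 151 in KO embryo, against 40.7 and 46.8 in control embryo. Every knock out library exceeded both controls, and KO arrest and KO embryo overlapped. Its log2 change was 1.70 ± 0.44 in KO arrest (limma adjusted p = 0.0179) and 1.60 ± 0.44 in KO embryo (adjusted p = 0.0567, not called), both against the same control libraries. The KO arrest call was lost with TPM values (adjusted p = 0.0863), with median-of-ratios scaling (0.141), with those 2 groups alone (0.0540) and without control embryo 1 (0.0573); the KO embryo change passed in 1 of 14 alternatives (0.0409, without KO arrest 1), and over all 14 it ran from 0.91 to 1.71 with adjusted p up to 0.261.

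Among the arrest genes, Cdkn1a, the p21 inhibitor of cyclin-dependent kinases, separated KO arrest from all other embryos. It was at 150, 173 and 323 FPKM in KO arrest, at 24.3, 4.69 and 6.55 in KO embryo, and at 13.6 and 30.7 in control embryo. The lowest KO arrest value was several times the highest of the other embryos, and the KO embryo and control ranges overlapped. The log2 change was 4.31 ± 0.60 against KO embryo (limma adjusted p = 0.00419) and 3.25 ± 0.67 against control embryo (adjusted p = 0.00679). Ccng1, a cyclin G that restrains p53 through MDM2, was at 91.0, 40.1 and 91.1 in KO arrest, 5.71, 3.88 and 7.26 in KO embryo, and 0.141 and 6.32 in control embryo. It rose by 4.61 ± 0.77 against control embryo (limma adjusted p = 0.00235; 3.26 without control embryo 1 and 5.95 without control embryo 2) and by 3.44 ± 0.69 against KO embryo (adjusted p = 0.0161). The call against KO embryo was lost without KO arrest 1 or 3 or KO embryo 1 or 2 (adjusted p between 0.0522 and 0.0704).

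Plk2, a polo-like kinase induced by stress, was at 54.0, 19.1 and 16.9 FPKM in KO arrest, 0, 0.315 and 2.04 in KO embryo, and 0.133 and 13.5 in control embryo. The lowest KO arrest value exceeded all others, though control embryo 2 came close. Plk2 rose by 4.09 ± 0.92 against KO embryo (limma adjusted p = 0.0238), a call lost without any 1 of the KO arrest libraries or without KO embryo 1 or 2 (adjusted p between 0.0669 and 0.0888), and the change of 2.74 ± 1.03 against control embryo was not called (adjusted p = 0.0759). Btg2, an antiproliferative coregulator, was at 43.3, 11.6 and 12.8 in KO arrest and 3.09, 0.707 and 1.27 in KO embryo, against 0.462 and 13.1 in control embryo, so that KO arrest overlapped control embryo 2. Its log2 change of 2.98 ± 0.87 against KO embryo was not called (limma adjusted p = 0.059).

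Gadd45a, a stress sensor that binds cell cycle proteins, ran the other way. It was at 6.68, 1.33 and 2.84 FPKM in KO arrest, 31.1, 68.5 and 34.8 in KO embryo, and 32.6 and 15.5 in control embryo, with every KO arrest value below every other embryo value. The fall was -3.39 ± 0.58 against KO embryo (limma adjusted p = 0.00821) and -2.52 ± 0.65 against control embryo (adjusted p = 0.0171). The call against control embryo was lost without KO arrest 2 (adjusted p = 0.056) or control embryo 1 (0.0921) and with those groups alone (0.0517). Its relatives were not called: Gadd45b ranged from 2.17 to 20.6 FPKM over the 8 embryo libraries with a median of 13, Gadd45g from 0 to 12 with a median of 1.95. The kinase Plk3 was low, from 0 to 5.11 FPKM with a median of 0.704. Gadd45a overlaps a gene on the opposite strand in the mm9 annotation of the files, as do Casp9, Diablo, Plk3 and Zmat3, and read strand is not stated.

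**Figure D3:**
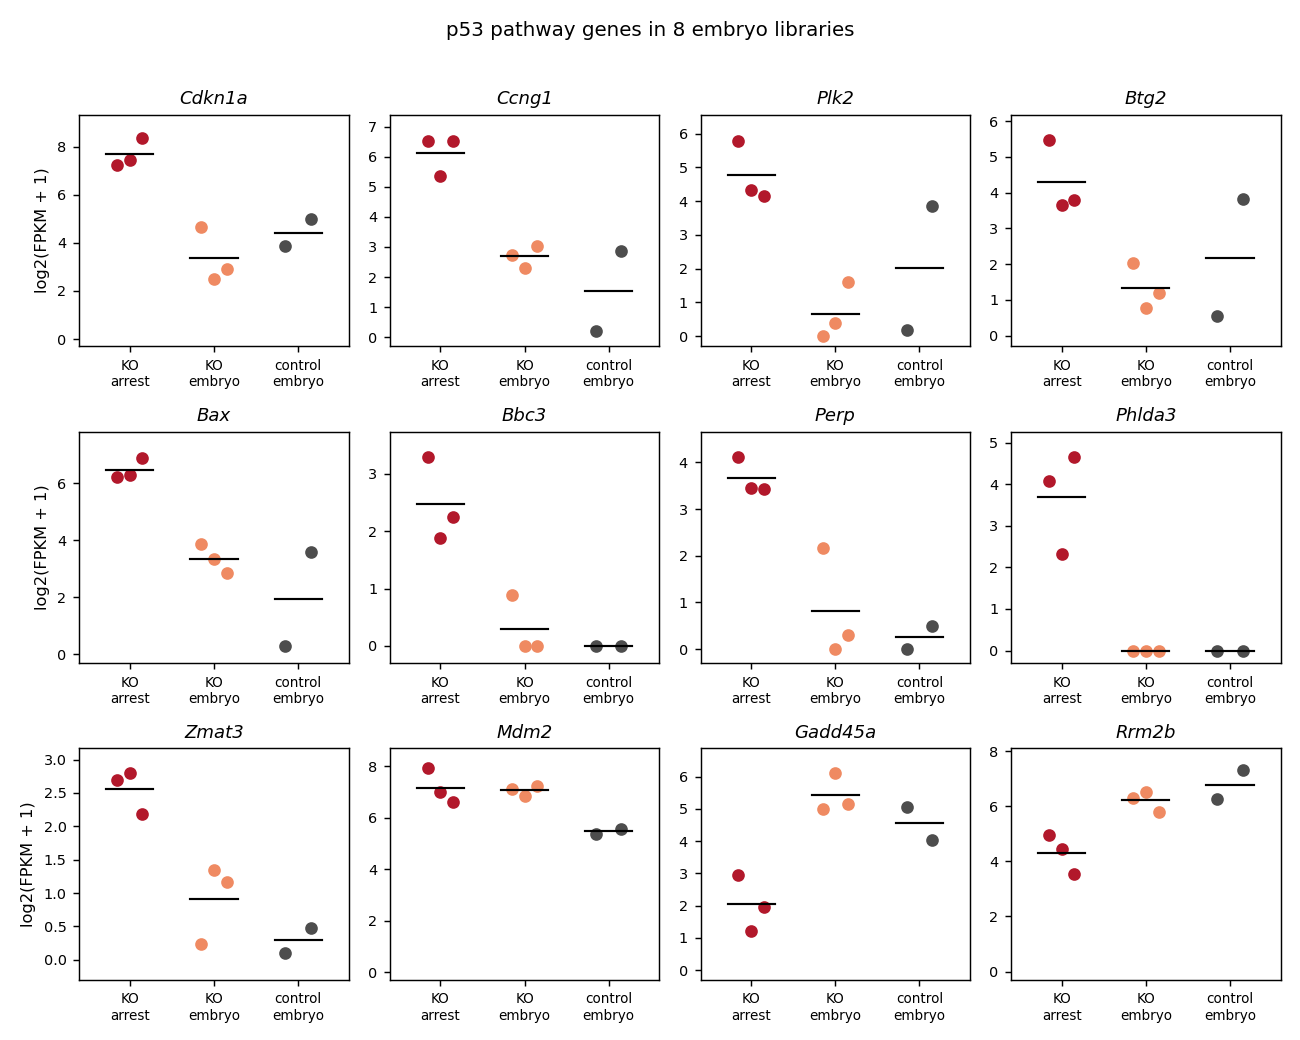
Level of 12 genes in the 8 embryo libraries (y axis, log2(FPKM + 1); points are libraries, lines are group means). Cdkn1a, Ccng1, Bax, Perp and Phlda3 sit higher in KO arrest than in every other embryo library, Gadd45a and Rrm2b lower, and Mdm2 is higher in both knock out groups than in control embryo.

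Genes that damp growth and stress signals were mixed. Phlda3, an inhibitor of AKT signalling, was at 16.0, 3.96 and 24.0 FPKM in KO arrest and listed at 0 in all KO embryo and control embryo libraries; no fold is given against a group at 0. Phlda3 entered the test through KO arrest alone, the group where it is high, so its limma adjusted p (0.00929 against KO embryo and 0.00508 against control embryo) is a description and not support. Zmat3, an RNA-binding splicing regulator, was at 5.44, 5.96 and 3.55 in KO arrest, 0.178, 1.54 and 1.24 in KO embryo, and 0.0729 and 0.397 in control embryo. It rose by 2.26 ± 0.60 against control embryo (limma adjusted p = 0.0202), a call lost without KO arrest 2 (0.0567), without control embryo 1 (0.0803) and with no filter on low values (0.0625). The change of 1.64 ± 0.54 against KO embryo was not called (adjusted p = 0.0862). Trp53inp1, a promoter of p53 activity and autophagy, spanned 6.31 to 162 FPKM over the embryos with a median of 66.5 and was not called. Its 3 KO arrest values of 162, 83.6 and 74.0 all exceeded the 3 KO embryo values of 58.9, 44.1 and 39.8. The mTORC1 inhibitors Sesn1, Sesn2 and Ddit4 were not called among embryos. Sesn1 had 0.119 to 8.45 FPKM. Sesn2 was at 10.7, 2.44 and 8.20 in KO arrest, 23.0, 16.8 and 10.5 in KO embryo, and 1.38 and 12.6 in control embryo. The groups overlapped in every pair. Ddit4 stood at 3.45, 3.82 and 4.78 in KO arrest, 6.13, 3.06 and 4.42 in KO embryo and 1.48 and 1.69 in control embryo.

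Of the repair genes, Rrm2b, a p53-induced subunit of ribonucleotide reductase, fell in the arrested embryos. It was at 30.2, 21.1 and 10.5 FPKM in KO arrest, 78.3, 91.7 and 54.7 in KO embryo, and 75.6 and 158 in control embryo, without overlap between KO arrest and the rest. The change was -2.47 ± 0.53 against control embryo (limma adjusted p = 0.00805) and -1.90 ± 0.48 against KO embryo (adjusted p = 0.0349). The call against KO embryo was lost without KO arrest 2 or 3 or any 1 of the KO embryo libraries (adjusted p between 0.0712 and 0.127). Polk, a DNA polymerase that copies past lesions, was at 7.66, 6.58 and 3.21 in KO arrest, 0.737, 0.445 and 0.408 in KO embryo, and 0.133 and 2.58 in control embryo. KO arrest did not overlap the other groups, but neither of its changes was called (limma adjusted p = 0.0573 against KO embryo and 0.091 against control embryo).

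Aen and Ei24, of the 3 further death genes linked to p53, were called higher in KO arrest against control embryo. Of all genes tested, 16.4% were. The calls of Aen and Ei24 were lost with median-of-ratios scaling. Perp was called too but entered the test through KO arrest alone, the group where it is high. Its limma adjusted p is therefore a description and not support. Perp, a membrane protein of cell junctions, was at 16.2, 9.98 and 9.82 FPKM in KO arrest, 3.49, 0 and 0.24 in KO embryo, and 0 and 0.415 in control embryo; it rose by 3.42 ± 0.75 against control embryo (limma adjusted p = 0.00863) and by 2.84 ± 0.67 against KO embryo (adjusted p = 0.028). The call against KO embryo was lost without any 1 of the KO arrest libraries or without KO embryo 2 or 3 (adjusted p between 0.0719 and 0.106). Ei24, a membrane protein of the endoplasmic reticulum, was at 71.8, 101 and 80.5 in KO arrest and 100, 64.6 and 75.8 in KO embryo, against 18.2 and 22.6 in control embryo. KO arrest and KO embryo overlapped, and the rise of 1.99 ± 0.40 in KO arrest against control embryo (limma adjusted p = 0.00555) was lost narrowly with median-of-ratios scaling (0.0507). Aen, a p53-induced nuclease, was at 32.5, 31.9 and 39.6 in KO arrest, 24.1, 19.6 and 12 in KO embryo, and 10.7 and 9.88 in control embryo, a stepwise order without overlap. Aen rose by 1.65 ± 0.47 against control embryo (limma adjusted p = 0.0266), a call lost with TPM values (0.11), median-of-ratios scaling (0.2) and those groups alone (0.0559), and without KO arrest 2 (0.0629) or 3 (0.0737). On the death receptor route, Fas was listed at 0 in all 8 embryo libraries, and Casp8, the caspase that receptors engage, was at 0 in all 3 KO arrest libraries and at 4.27 FPKM in control embryo 1. Tnfrsf10b, the mouse TRAIL receptor, was at 23.9, 3.32 and 3.39 in KO arrest, 0.457, 1.79 and 2.34 in KO embryo, and 0.0805 and 1.70 in control embryo, and was not called (limma adjusted p = 0.197 against KO embryo and 0.0938 against control embryo).

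Within the BCL-2 family the effector Bax rose and its partner was nearly absent. Bax was at 72.4, 77.1 and 118 FPKM in KO arrest, 13.6, 9.14 and 6.26 in KO embryo, and 0.233 and 10.9 in control embryo. Every KO arrest value exceeded every other embryo value, and KO embryo overlapped control embryo 2. The log2 change was 4.52 ± 0.82 against control embryo (limma adjusted p = 0.00345; 2.89 without control embryo 1 and 6.16 without control embryo 2). It was 3.10 ± 0.73 against KO embryo (limma adjusted p = 0.0281), a call lost without any 1 of the 6 libraries compared (adjusted p between 0.0621 and 0.108), with pseudocount 0.1 (0.103) and with TPM values (0.0785). Bak1, the other pore former, was at 0 in every KO arrest library, at 0.368, 0 and 0.0929 FPKM in KO embryo and at 0.126 and 0.0844 in control embryo.

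Of the BH3-only genes, 1 of 5 was called in each comparison of KO arrest. Of all genes tested, 25.2% were called against control embryo and 8.58% against KO embryo. The gene was Bbc3, which entered the test through KO arrest alone, the group where it is high. Its limma adjusted p is therefore a description and not support. Bbc3 was at 8.84, 2.67 and 3.74 FPKM in KO arrest, 0.853, 0 and 0 in KO embryo, and at 0 in both control embryos. It was called against control embryo (limma adjusted p = 0.0145; 0.0534 without control embryo 1) and rose by 2.18 ± 0.54 against KO embryo (adjusted p = 0.0345). The call against KO embryo was lost with no filter on low values (0.0888), with pseudocount 0.1 (0.0624), with TPM values (0.0564) and without any 1 of the 6 libraries compared (0.0584 to 0.121), and the change ran from 1.77 to 4.43. Bcl2l11 (BIM) was at 15.1, 17.0 and 26.1 in KO arrest, 6.74, 3.91 and 7.02 in KO embryo, and 4.11 and 10.5 in control embryo, a separation that was not called (limma adjusted p = 0.0908 against KO embryo and 0.11 against control embryo). Pmaip1 was at 28.5, 8.66 and 17.3 in KO arrest, 11.1, 6.21 and 11.9 in KO embryo, and 0.201 and 13 in control embryo, and the groups overlapped. Bid, which caspase-8 cleaves into an activator, was at 39.5, 14.6 and 10.8 in KO arrest, 23.7, 9.32 and 11.4 in KO embryo, and 0.377 and 17.5 in control embryo, again with overlap. Bik was at or under 1.38 FPKM in 7 embryo libraries and at 7.04 in control embryo 2.

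None of the inhibitors was called among embryos. Bcl2 was at 0.0277, 0.0136 and 0.00271 FPKM in KO arrest, 0.101, 0.38 and 0.235 in KO embryo, and 0.186 and 0.109 in control embryo, too low to be tested. Bcl2l1 was at 3.25, 0.602 and 2.53 FPKM in KO arrest, 6.79, 2.39 and 6.26 in KO embryo, and 2.84 and 18.9 in control embryo, and was not called (limma adjusted p = 0.436 against KO embryo and 0.184 against control embryo). Mcl1, a short-lived inhibitor, had the highest FPKM of the 3, at 62.9, 73.0 and 51.5 in KO arrest, 144, 88.8 and 79.6 in KO embryo, and 45.3 and 34.0 in control embryo. KO embryo lay above both other groups without overlap, and no comparison was called (adjusted p = 0.263 for KO arrest against KO embryo and 0.083 for KO embryo against control embryo).

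**Figure D4:**
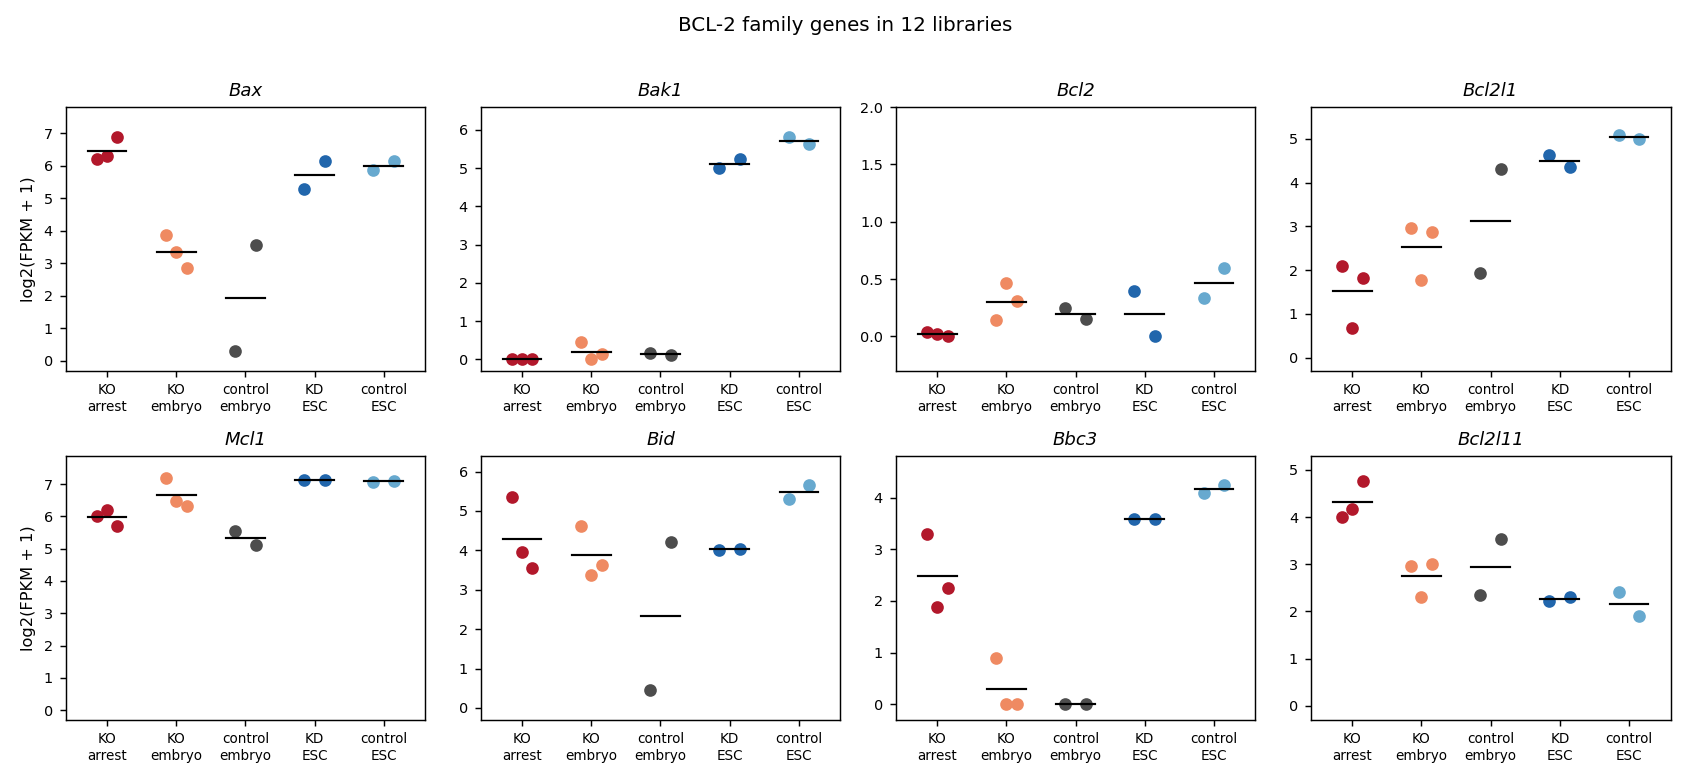
Level of 8 BCL-2 family genes in the 12 libraries (y axis, log2(FPKM + 1); points are libraries, lines are group means). Bax is highest among embryos in KO arrest, Bak1 is near 0 in all embryos and at 31.0 to 55.5 FPKM in ES cells, and Bid is lower in KD ESC than in control ESC.

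Downstream of the mitochondria, Diablo (SMAC), which releases caspases from XIAP, was at 83.5, 108 and 77.8 FPKM in KO arrest, 48.6, 27.3 and 49.2 in KO embryo, and 0.984 and 23.1 in control embryo, in separate ranges. It rose by 3.70 ± 0.84 against control embryo (limma adjusted p = 0.00997; 1.90 without control embryo 1 and 5.50 without control embryo 2), and the change of 1.12 ± 0.75 against KO embryo was not called (adjusted p = 0.378). Cycs, the gene of cytochrome c, which has processed copies that can share reads, was at 95.8, 138 and 156 in KO arrest, 98.1, 94.4 and 151 in KO embryo, and 59.4 and 66.8 in control embryo. Every knock out library exceeded both controls, but the change of 1.00 ± 0.39 in KO arrest against control embryo was not called (limma adjusted p = 0.0871). Apaf1, Casp9 and Xiap were not called: over the embryos Apaf1 had 4.86 to 12 FPKM, Casp9 0 to 6.14, and Xiap, the caspase inhibitor, 8.83 to 33.7. In KO embryo Apaf1 was at 8.499, 7.93 and 6.92 and Xiap at 26.9, 28.6 and 18.4, against 6.52 and 4.86 and against 15.6 and 9.14 in control embryo, so both separated those groups.

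In KO embryos that were not labelled as arrested, 1 of the 35 genes differed from control embryos, where 6.36% of all genes did (4.86% higher, 1.50% lower). This was Ei24, which rose by 1.91 ± 0.40 (limma adjusted p = 0.0233), at 100, 64.6 and 75.8 FPKM in KO embryo against 18.2 and 22.6 in control embryo. The call was lost with median-of-ratios scaling (adjusted p = 0.116), with the pair of groups alone (0.055) and without KO embryo 1 (0.0973), 2 (0.052) or 3 (0.0821). Control embryo 2 bore on the count itself: without it, 8 of the genes were called. The groups did not overlap for 9 genes, all higher in KO embryo (Aen, Apaf1, Cycs, Ddit4, Diablo, Ei24, Mcl1, Mdm2 and Xiap). Of all genes, 36.3% did not overlap. The median change was 0.62 for the 35 genes and 0.31 for all genes, and with median-of-ratios scaling the median of all genes moved by -0.35. The other genes called higher or lower in KO arrest were not called here, and 3 of them show the width of the intervals: Cdkn1a -1.06 ± 0.67 (95% interval -2.55 to 0.43), Bax 1.42 ± 0.82 (-0.39 to 3.23) and Ccng1 1.16 ± 0.77 (-0.54 to 2.86).

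The ESCs expressed most of the 39 genes, and few of them passed the test after knock down of Dcaf11. Of 37 tested genes, 2 differed, both lower in KD ESC, where 6.23% of all genes were called (2.59% higher, 3.64% lower). Bid was at 15.1 and 15.4 FPKM in KD ESC against 38.8 and 49.5 in control ESC, a change of -1.46 ± 0.15 (limma adjusted p = 0.0304). Btg2 was at 17.8 and 21.1 in KD ESC against 37.0 and 35.2 in control ESC, a change of -0.87 ± 0.12 (adjusted p = 0.0405). With 2 residual degrees of freedom these calls were fragile: Bid lost its call without KD ESC 1 (adjusted p = 0.0556), control ESC 1 (0.0909) or control ESC 2 (0.129), and Btg2 without KD ESC 1 (0.063), control ESC 1 (0.21) or control ESC 2 (0.194). The groups did not overlap for 26 of 37 genes, where 62.5% of all genes did not overlap, and the median change was -0.06 against -0.09 for all genes.

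Several genes separated the groups without passing the test. Bak1 was at 31.0 and 36.5 FPKM in KD ESC against 55.5 and 48.3 in control ESC (-0.61 ± 0.13, limma adjusted p = 0.0671), and Bbc3 at 11.1 and 10.9 against 16.1 and 17.8 (-0.58 ± 0.11, adjusted p = 0.0607). Cycs was at 36.8 and 39.6 in KD ESC against 25.7 and 26.5 in control ESC (0.53 ± 0.09, adjusted p = 0.0521), and Ccng1 at 284 and 264 against 210 and 213 (0.37 ± 0.07, adjusted p = 0.0558). Mdm2 was at 108 and 95 in KD ESC against 77.6 and 78.7 in control ESC (0.37 ± 0.09, limma adjusted p = 0.0878). Phlda3 had 63.9 and 54.5 against 71.6 and 70.6, and Zmat3 33.2 and 37.9 against 48.0 and 48.1, neither of them called. Perp was not called and overlapped between the groups, at 3.56 and 5.04 against 7.25 and 4.16. Bax was at 37.7 and 69.5 in KD ESC against 57.5 and 69.3 in control ESC, and Rrm2b at 5.74 and 7.46 against 3.46 and 4.36. Gadd45a had 4.06 and 6.85 in KD ESC against 7.76 and 7.40 in control ESC, and Plk2 19.9 and 21.9 against 15.7 and 21.7. Diablo had 11.8 and 15.8 against 18.6 and 19.5, and Polk 8.09 and 6.32 against 10.03 and 9.20. These were not called, and Bax and Plk2, like Perp, overlapped between the groups. Sesn2 was at 20.4 and 21.1 in KD ESC against 24.6 and 26.5 in control ESC, and Pmaip1 at 26.5 and 26.0 against 23.4 and 25.5. Tnfrsf10b was at 23.5 and 19.4 against 17.2 and 16.1, and Ddit4 at 50.2 and 39.3 against 46.8 and 46.9, again not called. Ddit4 overlapped between the groups. Bcl2, which was not tested, overlapped at 0.315 and 0 in KD ESC against 0.263 and 0.512 in control ESC. Mcl1 was at 140 and 138 in KD ESC against 133 and 136 in control ESC.

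Some genes differed widely within a group, and of these Cdkn1a and Trp53inp1 were each nearly absent from 1 library. Cdkn1a was at 18.8 and 112 FPKM in KD ESC against 0.594 and 93.4 in control ESC, and Trp53inp1 at 107 and 0.978 in KD ESC against 136 and 134 in control ESC. Trp53 was at 36.4 and 87.7 in KD ESC against 114 and 73.2 in control ESC, and Aen at 18.7 and 50.9 against 20.9 and 46.7. For these genes the libraries of a group lay far apart: the 95% interval of the Cdkn1a change ran from -3.85 to 7.74 and that of Trp53inp1 from -8.44 to 2.02. Of the 6 ES cell markers, Esrrb was at 28.6 FPKM in KD ESC 1 and between 244 and 255 in the other 3 libraries, while the other 5 markers were at 246 FPKM or more in all 4.

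**Figure D5:**
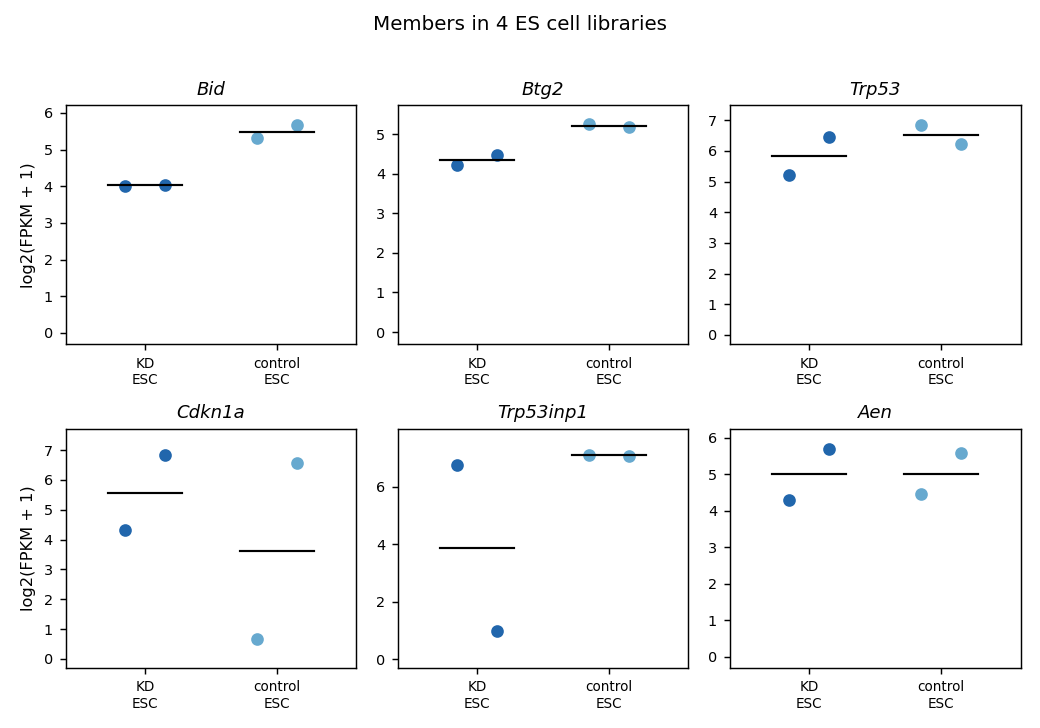
Level of 6 genes in the 4 ES cell libraries (y axis, log2(FPKM + 1); points are libraries, lines are group means). Bid and Btg2 separate the groups, whereas Cdkn1a, Trp53inp1, Trp53 and Aen differ more within a group than between groups.

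The effects of the knock out in embryos and of the knock down in ESCs were compared in a fit of all 12 libraries, in which strain, cell type and mode of Dcaf11 loss all differ and cannot be told apart. Of 37 genes, 1 differed, where 2.69% of all genes did (2.06% with a higher effect in KO embryo, 0.623% with a lower one): the Ei24 effect in KO embryo exceeded that in KD ESC by 1.84 ± 0.40 (limma adjusted p = 0.0462). Ei24 was at 56.2 and 54.4 FPKM in KD ESC against 51.7 and 54.0 in control ESC, a change of 0.06 ± 0.08. The call was lost with pseudocount 0.1 (adjusted p = 0.0564), with median-of-ratios scaling (0.226) and in 9 of the 12 fits that left out a library, with adjusted p up to 0.188. Those 9 left out KO arrest 2 or 3, KO embryo 1 or 3, control embryo 1, or any 1 of the 4 ESC libraries. The median difference was 0.79 for the 37 genes and 0.30 for all genes.

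Control embryos differed from control ESCs in 20 of 37 genes, 18 lower and 2 higher, which stands close to the 53.4% of all genes called (12.6% higher, 40.8% lower). The groups did not overlap for 30 of 37, where 74.4% of all genes did not overlap. Embryo and culture, strain and amount of RNA differ together here. The genes lower in control embryo included Ccng1 (0.141 and 6.32 FPKM against 210 and 213), Bak1 (0.126 and 0.0844 against 55.5 and 48.3), Ddit4 (1.48 and 1.69 against 46.8 and 46.9) and Trp53 (13.3 and 13.1 against 114 and 73.2). Trp53 was lower by a log2 change of -2.70 ± 0.49 (limma adjusted p = 0.00121) and Bak1 by -5.58 (adjusted p = 3.57e-06), though Bak1 passed the filter on low values only through the ESC libraries. The others were Aen, Bax, Bbc3, Bid, Btg2, Ei24, Mcl1, Perp, Phlda3, Pmaip1, Polk, Sesn2, Tnfrsf10b and Zmat3. Higher in control embryo were Rrm2b, at 75.6 and 158 FPKM against 3.46 and 4.36 (4.50, adjusted p = 7.70e-05), and Cycs, at 59.4 and 66.8 against 25.7 and 26.5 (1.24, adjusted p = 0.00909). Bid, Btg2, Pmaip1 and Sesn2 lost their calls without control embryo 1 or either control ESC library (limma adjusted p between 0.0783 and 0.279), and Pmaip1 and Sesn2 also without some libraries of the other groups (KO arrest 3, any 1 of the KO embryo libraries for one or the other gene, or either KD ESC; 0.0514 to 0.0595). Perp lost its call without control embryo 1 (0.0525) or control ESC 1 (0.0835), and Aen without control embryo 1 (0.0767), control embryo 2 (0.0825) or control ESC 2 (0.257). The median change was -1.87 for the 37 genes and -1.01 for all genes, and median-of-ratios scaling moved the median of all genes by 0.56, after which 15 of the 37 genes were called. That scaling ended the calls of Ei24 (-0.34, limma adjusted p = 0.408), Mcl1 (-0.74, 0.155), Aen (-0.55, 0.449), Bid (0.0578), Btg2 (0.052), Pmaip1 (0.0957) and Sesn2 (0.127).

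Other genes of the same pathways, in lists of 35 p53 pathway and 36 apoptosis genes, moved in both directions. In KO arrest against control embryo 5 of 31 tested p53 pathway genes rose and 6 fell (median 0.06), and 7 of 31 apoptosis genes rose and 2 fell (median 0.64), where 16.4% of all genes rose and 8.87% fell (median 0.45). Against KO embryo the p53 list gave 3 higher and 4 lower (median -0.06) and the apoptosis list 4 higher and 1 lower (median 0.20), of 31 each, where 4.93% of all genes were higher and 3.65% lower (median 0.07). In both lists some genes that rose in KO arrest passed the filter on low values only through KO arrest. A higher value there was a condition of their entry, and counts without such genes are not given. Sfn, the 14-3-3 sigma protein that p53 induces in human cells, was at 166, 166 and 222 FPKM in KO arrest, 25.7, 12.5 and 11.1 in KO embryo, and 1.34 and 2.88 in control embryo, in 3 separate ranges. It rose by 5.93 in KO arrest (limma adjusted p = 0.000141) and by 2.44 in KO embryo (adjusted p = 0.0229), both against control embryo, and by 3.49 in KO arrest against KO embryo (adjusted p = 0.00335). Ccng2, a cyclin G of quiescent cells, was at 0.484, 0.199 and 0.0201 in KO arrest, 28, 30.6 and 11.1 in KO embryo, and 64.2 and 25.1 in control embryo. Mdm4, a relative of Mdm2 that inhibits p53, was at 109, 92.0 and 57.9 in KO arrest, 308, 272 and 320 in KO embryo, and 422 and 970 in control embryo. Chek1, a checkpoint kinase, was at 23.2, 14.8 and 9.25 in KO arrest, 35.3, 36.1 and 42.1 in KO embryo, and 101 and 108 in control embryo. Against control embryo Ccng2 fell by 5.08, Mdm4 by 2.92 and Chek1 by 2.74 on the log2 scale (limma adjusted p = 0.000638, 0.00131 and 0.0024).

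Of the apoptosis list, Bnip3, a mitochondrial BH3 protein also tied to mitophagy, was at 752, 769 and 657 FPKM in KO arrest, 333, 214 and 276 in KO embryo, and 107 and 104 in control embryo. It rose in each comparison (2.77 in KO arrest and 1.35 in KO embryo, both against control embryo, limma adjusted p = 0.000477 and 0.0401; 1.42 between KO arrest and KO embryo, adjusted p = 0.0186). Endog, a mitochondrial nuclease, was at 26.6, 11.6 and 32.9 in KO arrest, 0, 0 and 0.322 in KO embryo, and at 0 in both control embryos. Endog passed the filter on low values only through KO arrest, the group where it is high. Bcl2l10, an inhibitor abundant in oocytes, was at 39.4, 10.2 and 37.4 in KO arrest, 165, 80.4 and 106 in KO embryo, and 296 and 902 in control embryo, with a change of -4.32 in KO arrest against control embryo (limma adjusted p = 0.00145). The summed oocyte markers given above, made up mostly of Omt2b, are in the same order, and their part in this difference was not tested. In KO embryo against control embryo each list gave 1 rise of 31 and no fall (Sfn and Bnip3), where 4.86% of all genes rose and 1.50% fell. In KD ESC against control ESC the p53 list gave 0 rises and 1 fall of 33 (Rps27l, -0.88, limma adjusted p = 0.0415), and the apoptosis list 1 rise and 3 falls of 33, the falls being Bcl2l14, Htra2 and Parp1, where 2.59% of all genes rose and 3.64% fell. In control embryo against control ESC 7 rose and 19 fell of 34 in the p53 list and 5 rose and 13 fell of 34 in the apoptosis list, where 12.6% of all genes rose and 40.8% fell. In the comparison of the effects the p53 list gave 1 of 34 (Sfn, 2.63, limma adjusted p = 0.0483) and the apoptosis list 0 of 34, with 5 at an unadjusted p under 0.05, where 2.69% of all genes were called.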

How the data were processed

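Each library has 1 table of FPKM, TPM and coverage by gene, per the file headers. STAR (listed as 0.6.0), StringTie, DESeq2 and the build mm9 are named in the submitters' processing notes, with no settings. TPM as deposited equals FPKM times a factor of 1.78 to 2.93 per library. The ratio of the deposited coverage to FPKM gave the relative depth; read numbers are unknown, so no counting interval is given. Unnamed rows, 227 to 339 in a library and 0.549% to 1.19% of its FPKM, were left out, and the FPKM of a symbol's loci were summed (46 to 47 symbols).

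Genes reaching 1 FPKM in 2 or more libraries of a fit were tested by limma 3.58.1 (R 4.3.3) with a variance trend on log2(FPKM + 1), in fits of the 8 embryo libraries, the 4 ESC libraries and all 12 (5, 2 and 7 residual degrees of freedom), with Benjamini-Hochberg adjustment over all genes kept. The fit was tested on simulated data. Alternatives were pseudocount 0.1, no filter, TPM, median-of-ratios scaling, a replicate block, only the groups compared, and each library left out. Tables and figures used Python 3.11.15, pandas 2.3.3 and matplotlib 3.10.9. Every sample's group came from the labels. Per-library values were printed for Trp53, Mdm2, Cdkn1a, Bax, Bcl2 and every gene called in at least 1 comparison, and for other genes where groups separated; of the further lists at most 4 called genes per comparison were named, and the values of 1 such gene are not reported here. The genes, lists and tests were chosen with earlier results of these data known.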

Additional observations from a re-analysis of the deposited data

Results flagged for a closer look

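The effect of the Dcaf11 knock out on Ei24 in embryos differed from that of the knock down in ESCs by a test of the difference itself, 1.84 ± 0.40 on the log2(FPKM + 1) scale (limma adjusted p = 0.0462). The call was fragile: it held in 5 of 17 alternative runs, with limma adjusted p up to 0.226. Ei24 was at 100, 64.6 and 75.8 FPKM in KO embryo against 18.2 and 22.6 in control embryo, and at 56.2 and 54.4 in KD ESC against 51.7 and 54.0 in control ESC. Strain and material differ between these pairs and cannot be told apart from the mode of Dcaf11 loss.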

How the results depend on the processing

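No value changed sign as a call under any alternative run. Against control embryo, 13 genes were called in KO arrest, and leaving out a library gave 10 to 20, the most without control embryo 2. For KO arrest against KO embryo the count was 9, against 4 with pseudocount 0.1, 3 with no filter and 5 with the replicate block, and 3 to 13 with a library left out. For KO embryo against control embryo it was 1, against 0 with median-of-ratios scaling, 0 with the replicate block and 0 with only those groups, and 0 to 8 with a library left out. For KD ESC against control ESC it was 2, against 1 with no filter, 4 with median-of-ratios scaling and 0 with the replicate block, and 0 to 3 with a library left out. For control embryo against control ESC it was 20, against 13 with only those groups and 15 to 27 with a library left out. For the difference of effects it was 1, against 0 with pseudocount 0.1, 0 with median-of-ratios scaling and 0 with the replicate block, and 0 to 7 with a library left out. The causes were not tested. Same-numbered libraries' deviations correlated at -0.0995 to 0.0246 over all genes. In groups of 2 libraries the deviations mirror each other, so these values cannot settle whether the numbers pair samples.

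Cdkn1a in both KO arrest comparisons, Gadd45a against KO embryo, and Bax, Ccng1, Diablo and Rrm2b against control embryo kept their calls under all 14 alternatives; Phlda3 and Perp, which entered the test only through KO arrest, are not counted here. Over all genes, median-of-ratios scaling took the share of calls that were higher to 35.6% for KO embryo against control embryo (76.4% in FPKM), 45.0% for KO arrest against control embryo (64.9%), 55.1% for KD ESC (41.6%), 36.8% for control embryo against control ESC (23.6%) and 39.3% for the difference of effects (76.8%). It moved the median of all genes by -0.30 for the difference of effects, and TPM moved it by -0.23 for KO arrest against control embryo, -0.34 for KO arrest against KO embryo and -0.39 for control embryo against control ESC. The number of genes called ranged from 76 to 1817 for KO embryo against control embryo (750), from 285 to 2030 for KO arrest against KO embryo (1012), from 13 to 782 for KD ESC (764), and from 39 to 2020 for the difference of effects (388). For KO arrest against control embryo it ranged from 1965 to 3636 (2976). With 2 control embryos that correlate less than other replicates and unknown read numbers, values under about 1 FPKM carry little precision.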
